A study of Mus musculus with 12 samples.

Results

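The genes examined here were 43 genes of the extracellular matrix and its remodelling, out of the 21899 genes in the deposited table of mouse kidney expression. They were taken by gene symbol: collagens, basement membrane and elastic fibre components, crosslinking enzymes, matricellular proteins, small proteoglycans, and proteases with their inhibitors. All 43 were in the table and all 43 passed the filter on low values, set at 0.3 FPKM or more in 3 or more libraries. FPKM is the number of fragments of a gene, scaled by its exon length and by all fragments of the library. The libraries fell into 4 groups of 3: db/db-GABP-KD, db/db mice labelled as knockdown of GABP; db/db-veh, db/db mice given vehicle; db/m-GABP-OE, db/m mice labelled as overexpression of GABP; and db/m-veh, db/m mice given vehicle. The db allele disrupts the leptin receptor, so that db/db mice grow obese and diabetic, whereas db/m mice carry 1 such allele and stay lean. GABP is a transcription factor of the ETS family, made of a DNA-binding alpha subunit and a beta subunit. Per the labels, kidneys of 6 mice per group were used and 3 tissues were mixed for an extraction. The sources used here do not say if the 3 libraries of a group came from different mixtures, and mixtures may share animals, so the p-values measure the spread between these libraries, which may be technical. The agent that raised or lowered GABP, the cells it reached, and the age and sex of the mice are not given there either.

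The extracellular matrix of the kidney has an interstitial part, built of fibrillar collagens, elastic fibres and proteoglycans made mainly by fibroblasts and related cells, and a basement membrane part under tubules, glomerular cells and vessels. Type IV collagen chains, laminins, nidogen and perlecan form the sheet of the basement membrane. Lysyl oxidases crosslink collagen and elastin, metalloproteinases cut matrix proteins, and TIMP proteins inhibit the metalloproteinases. Interstitial matrix accumulates in renal fibrosis, and thickening of the glomerular basement membrane is a known feature of diabetic kidney disease.

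Promoter sequences are shown for 3 of the 7 members that passed the test with GABP-OE, and for the shared start of the type IV collagen pair, which holds the member with the highest mean over the 12 libraries and did not pass it. Each window runs from 250 bases before to 50 bases after the start site, 5′ to 3′ on the gene's strand, from RefSeq on GRCm38.p6. Capitals mark GGAA, the core that ETS factors bind, or TTCC, the same core on the other strand. The windows are Timp1 at chrX:20869916-20870215 (plus strand), Tnc at chr4:64046887-64047186 (minus strand), Col3a1 at chr1:45311288-45311587 (plus strand) and Col4a2 at chr8:11312555-11312854 (plus strand).
Timp1: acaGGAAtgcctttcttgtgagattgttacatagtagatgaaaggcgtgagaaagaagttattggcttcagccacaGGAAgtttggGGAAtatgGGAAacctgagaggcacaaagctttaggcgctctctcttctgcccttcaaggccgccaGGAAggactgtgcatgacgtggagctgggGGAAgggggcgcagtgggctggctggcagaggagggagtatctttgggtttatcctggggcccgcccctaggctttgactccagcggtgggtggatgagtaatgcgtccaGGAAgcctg
Tnc: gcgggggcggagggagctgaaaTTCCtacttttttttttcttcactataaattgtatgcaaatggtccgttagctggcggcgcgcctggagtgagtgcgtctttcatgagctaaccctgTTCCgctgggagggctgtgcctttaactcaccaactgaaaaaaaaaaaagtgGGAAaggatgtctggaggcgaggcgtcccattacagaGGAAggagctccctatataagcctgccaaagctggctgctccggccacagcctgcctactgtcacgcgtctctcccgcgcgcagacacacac
Col3a1: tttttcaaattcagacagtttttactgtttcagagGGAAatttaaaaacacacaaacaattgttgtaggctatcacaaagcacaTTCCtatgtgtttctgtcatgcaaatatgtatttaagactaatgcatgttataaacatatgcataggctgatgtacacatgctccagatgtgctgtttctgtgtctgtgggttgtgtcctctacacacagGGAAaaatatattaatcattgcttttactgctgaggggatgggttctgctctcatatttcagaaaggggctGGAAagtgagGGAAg
Col4a2: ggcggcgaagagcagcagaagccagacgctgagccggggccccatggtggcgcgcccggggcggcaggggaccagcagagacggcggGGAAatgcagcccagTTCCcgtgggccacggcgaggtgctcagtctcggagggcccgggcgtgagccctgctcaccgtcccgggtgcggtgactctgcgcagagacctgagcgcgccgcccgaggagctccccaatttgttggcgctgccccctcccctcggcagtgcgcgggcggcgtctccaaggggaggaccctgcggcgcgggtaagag
GGAA occurred on either strand 7 times in the Timp1 window, 4 times in the Tnc window, 5 times in the Col3a1 window and 2 times in the Col4a2 window. RefSeq windows were matched for 27 of the 43 members, 33 windows in all. GGAA was in 97.0% of these windows, near the 96.0% of all 32851 windows of that length. The longer GABP-type motif CCGGAAG, searched on both strands and containing GGAA, was in 0 of the 33 and in 8.86% of all windows. The motif GACCACCCA, recognised by GLI factors and searched because the series title names GLI1 as a target of GABP, was in 0 of the 33 and in 0.253% of all windows. TATAAA was in 4 windows of 3 members, Col3a1, Postn and Tnc, against 13.6% of all windows. In the Col3a1 window it started at position -117 and in the Tnc window shown at -205, counted from the start site. Tnc has a further, overlapping window at chr4:64046966-64047265, with GGAA 5 times. The same Tnc TATAAA lies at -126 there, so it is counted in both windows. Among the called members Lox, Mfap4, Mfap5 and Mmp2 are named without a window.

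The 12 libraries held 6.78 to 9.70 M fragments. The mitochondrial genome gave between 47.9% of them, in db/db-GABP-KD 1, and 86.0%, in db/db-veh 2, which left 1.08 to 4.39 M for nuclear genes. FPKM divides by all fragments, mitochondrial ones included. As deposited, log2 fold changes of the 12897 tested genes had medians of -0.24 for db/db-veh over db/m-veh, 0.38 for db/m-GABP-OE over db/m-veh and 0.42 for db/db-GABP-KD over db/db-veh. Scaling by median of ratios, which sets the libraries to a common level over 5884 genes, brought these medians to 0.01, 0.04 and 0.00, and results are given on both scales. With the nuclear FPKM sum made equal instead, the medians were 0.25, -0.05 and -0.09. The cause of the shifts as deposited was not tested. Since db/db-GABP-KD 1 was unlike the other libraries, results on that group are also given without it. Gabpa, the DNA-binding subunit, was at 6.62, 2.66 and 3.40 FPKM in the libraries labelled db/db-GABP-KD, against 2.20, 2.17 and 1.63 FPKM in the db/db-veh libraries. It was thus not lower in the libraries labelled as knockdown (log2 fold change 0.84 with an SE of 0.33, limma adjusted p = 0.345; 0.31 after median of ratios). For GABP-OE, Gabpa stood at 3.45, 3.35 and 3.71 FPKM in db/m-GABP-OE, against 1.79, 2.32 and 2.54 in db/m-veh (log2 fold change 0.57 with an SE of 0.33, limma adjusted p = 0.435; 0.19 after median of ratios). The labels are therefore kept as names of the groups, and directions below refer to the labelled libraries. Proximal tubule markers, 9 of 9 past the filter, summed to 918.6, 679.2 and 834.0 FPKM in db/db-GABP-KD, 1617, 639.0 and 1580 in db/db-veh, 15610, 31400 and 23230 in db/m-GABP-OE, and 16620, 3128 and 7434 in db/m-veh. Most of the db/m sums was Kap, an androgen-regulated gene of the mouse proximal tubule. Without Kap, which was set apart after its values had been seen, the other 8 summed to 568.4, 560.9 and 640.1 FPKM in db/db-GABP-KD, 766.8, 290.8 and 743.9 in db/db-veh, 869.9, 1036 and 883.7 in db/m-GABP-OE, and 1635, 353.3 and 686.9 in db/m-veh.

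The comparison of db/m-GABP-OE with db/m-veh asked which matrix genes differed when GABP was labelled as raised in lean mice. Here 7 of the 43 members rose and 0 fell, where 1.85% of all genes tested were called higher and 0.0543% lower. The 7 were the elastic fibre genes Mfap4 and Mfap5, the protease gene Mmp2, the inhibitor gene Timp1, the matricellular gene Tnc, the crosslinking enzyme gene Lox and the fibrillar collagen gene Col3a1. They came from 5 of the 8 roles, and none was a basement membrane, small proteoglycan or beaded filament, network and fibril-associated collagen gene. Log2 fold changes here are differences of group means of log2(FPKM + 0.5), tested with limma over all genes at a Benjamini-Hochberg adjusted p under 0.05, and they understate the change of genes with low FPKM. After median of ratios 0 of the 43 were called by limma, and 0.163% of all genes were called higher. At an unadjusted p under 0.05 there were 13 members, and 971 of all 12897 genes. With voom on recovered fragments 2 were called, where 58 of 12621 genes were called higher. In whole kidney, more cells of a type and more RNA per cell cannot be told apart.

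**Figure D1:**
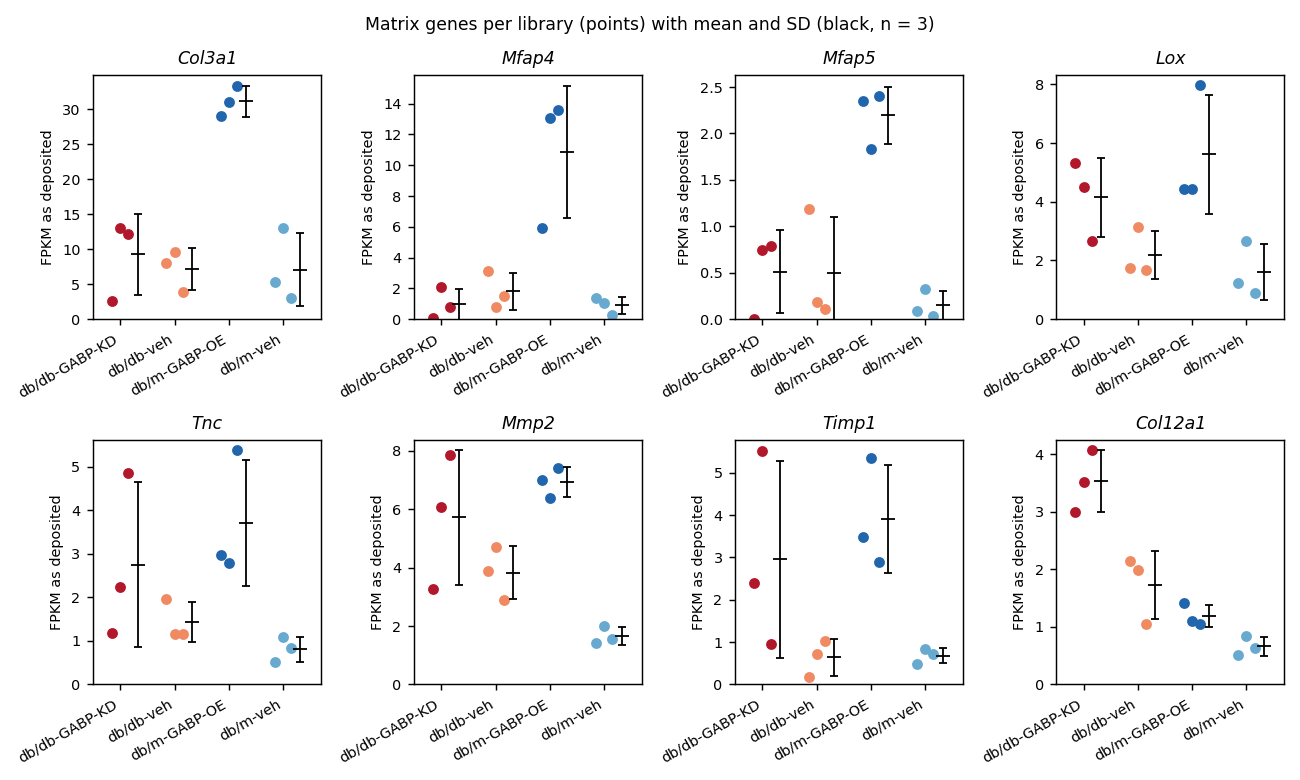
FPKM as deposited, by library and group, of the 7 members called in db/m-GABP-OE over db/m-veh and of Col12a1, called by the test over all 4 groups. Each point is a library and black marks are the mean and SD (n = 3), cut at 0 where the SD reaches below it. In the panels of the 7, all 3 db/m-GABP-OE libraries lie above all 3 db/m-veh libraries.

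Both called elastic fibre genes encode proteins of the microfibrils that surround elastin. Mfap4 (ENSMUSG00000042436, chromosome 11, 61485431 to 61488900, plus strand, coordinates in GRCm38) had 5.93, 13.1 and 13.6 FPKM in db/m-GABP-OE, against 1.36, 1.07 and 0.279 FPKM in db/m-veh. These values rest on 571 and 43 fragments, and the groups did not overlap. Means were 10.9 ± 4.27 FPKM in db/m-GABP-OE and 0.904 ± 0.562 FPKM in db/m-veh (SD, n = 3 each), and their ratio on the median of ratios scale was 8.46. Its log2 fold change was 3.03 (SE 0.53, limma adjusted p = 0.00868), and 2.61 when scaled by median of ratios (limma adjusted p = 0.0776). Over 26 alternatives the limma adjusted p ran from 6.16e-06 to 0.136, and 19 of them called it. Mfap4 was at 0.0616, 2.06 and 0.814 FPKM in db/db-GABP-KD and at 3.15, 0.810 and 1.49 FPKM in db/db-veh, so it was in the lean GABP-OE kidneys that every library was above the other 9. Of its exon bases, 4.63% are shared with Mapk7 on the opposite strand, and the sources used here do not give the strand setting of the counting.

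Mfap5 (ENSMUSG00000030116, chromosome 6, 122505845 to 122529290, plus strand) was a gene of low level, with 2.35, 1.84 and 2.40 FPKM in db/m-GABP-OE, against 0.0914, 0.327 and 0.0298 FPKM in db/m-veh. Fragments summed over the libraries numbered 214 and 12. The ratio of its means was 14.7 as deposited and 9.80 on the median of ratios scale, and the log2 fold change, damped by the pseudocount, was 2.07 (SE 0.40, limma adjusted p = 0.0131). On the median of ratios scale it was 1.74 (limma adjusted p = 0.139), and 17 of 26 alternatives called it, at limma adjusted p from 2.55e-05 to 0.396. In db/db-GABP-KD Mfap5 was at 0, 0.747 and 0.792 FPKM, against 1.19, 0.181 and 0.109 FPKM in db/db-veh.

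The other 4 elastic fibre members did not pass the test. Fbln5, which links cells to elastic fibres and has the highest mean of the 6 over all 12 libraries, had 74.0, 73.5 and 61.5 FPKM in db/m-GABP-OE, against 33.2, 47.0 and 17.9 FPKM in db/m-veh (log2 fold change 1.18 with an SE of 0.52, limma adjusted p = 0.289). Eln, elastin itself, had 3.06, 3.92 and 3.98 FPKM in db/m-GABP-OE, against 2.40, 2.52 and 1.60 FPKM in db/m-veh (log2 fold change 0.65 with an SE of 0.44, limma adjusted p = 0.5). Both sets of libraries were separate as deposited and overlapped after median of ratios. Fbln1, a glycoprotein of elastic fibres and basement membranes, had a mean of 11.2 ± 2.56 FPKM (SD, n = 3) in db/m-GABP-OE and 2.76 ± 1.99 FPKM in db/m-veh (limma adjusted p = 0.0743). Fbn1, which forms the microfibril core, averaged 3.21 ± 0.539 and 2.38 ± 0.971 FPKM in these groups. The log2 fold changes of the 6 ran from 0.41 for Fbn1 to 3.03 for Mfap4, with a median of 1.60 beside the all-gene median of 0.38. Exons of Fbn1 share 20.1% of their bases with Gm9913 on the opposite strand.

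Among the proteases and inhibitors, Mmp2 and Timp1 rose. Mmp2 (ENSMUSG00000031740, chromosome 8, 92827291 to 92853420, plus strand), a gelatinase that degrades type IV collagen and denatured collagen, had 7.00, 6.39 and 7.42 FPKM in db/m-GABP-OE, against 1.43, 2.00 and 1.56 FPKM in db/m-veh. The ranges were narrow in both groups and lay far apart, at 637 and 139 fragments. Its log2 fold change was 1.79 (SE 0.35, limma adjusted p = 0.0132), and 1.39 when scaled by median of ratios (limma adjusted p = 0.316). Over 26 alternatives the limma adjusted p ran from 2.66e-05 to 0.711, and 18 of them called it.

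Timp1 (ENSMUSG00000001131, chromosome X, 20870166 to 20874735, plus strand), a secreted inhibitor of metalloproteinases that is widely used as a marker of tissue fibrosis, had 3.49, 5.34 and 2.88 FPKM in db/m-GABP-OE, against 0.492, 0.826 and 0.724 FPKM in db/m-veh. It is a short gene, so these values rest on 96 and 15 fragments. The log2 fold change was 1.87 (SE 0.44, limma adjusted p = 0.038), and 1.50 when scaled by median of ratios (limma adjusted p = 0.35). Over 26 alternatives the limma adjusted p ran from 0.00117 to 0.69, and 11 of them called it. Mmp14, the membrane-bound metalloproteinase that activates the Mmp2 proenzyme, had 6.95, 8.92 and 24.6 FPKM in db/m-GABP-OE, against 5.58, 4.04 and 1.96 FPKM in db/m-veh (log2 fold change 1.57 with an SE of 0.46, limma adjusted p = 0.0934). Library db/m-GABP-OE 3 was well above the other two. Timp2 averaged 29.2 ± 5.94 FPKM (SD, n = 3) in db/m-GABP-OE and 13.8 ± 4.05 FPKM in db/m-veh (log2 fold change 1.08, limma adjusted p = 0.21). Timp3, an inhibitor that is held in the matrix, had 20.0, 23.6 and 25.2 FPKM in db/m-GABP-OE, against 15.8, 15.2 and 19.8 FPKM in db/m-veh (log2 fold change 0.43 with an SE of 0.36, limma adjusted p = 0.565). Its log2 fold change was 0.00 after median of ratios, and 21.3% of its exon bases are shared with Syn3 on the opposite strand.

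In the matricellular group Tnc rose. Tnc (ENSMUSG00000028364, chromosome 4, 63959785 to 64047015, minus strand), tenascin C, a glycoprotein of developing and injured tissue, had 2.96, 2.80 and 5.38 FPKM in db/m-GABP-OE, against 0.521, 1.09 and 0.827 FPKM in db/m-veh. The log2 fold change was 1.65 (SE 0.40, limma adjusted p = 0.0419), and 1.28 when scaled by median of ratios (limma adjusted p = 0.401). Over 26 alternatives the limma adjusted p ran from 0.000955 to 0.797, and 9 of them called it. The libraries did not overlap on either scale. Sparc, a collagen-binding protein with the highest mean of the group over all 12 libraries, had 74.8, 85.8 and 108 FPKM in db/m-GABP-OE, against 40.5, 49.7 and 34.1 FPKM in db/m-veh (log2 fold change 1.10 with an SE of 0.39, limma adjusted p = 0.182). Postn, periostin, had 0.954, 1.81 and 1.62 FPKM in db/m-GABP-OE, against 0.163, 0.843 and 0.0984 FPKM in db/m-veh (log2 fold change 1.25 with an SE of 0.35, limma adjusted p = 0.0748). Thbs1, which can activate latent TGF-beta, averaged 10.9 ± 0.270 FPKM (SD, n = 3) in db/m-GABP-OE and 4.78 ± 1.19 FPKM in db/m-veh (log2 fold change 1.14, limma adjusted p = 0.0999). Libraries of both groups were separate as deposited for all 4 of these genes, where 30.4% of all genes were separate upwards. After median of ratios Tnc and Thbs1 stayed separate, where 9.72% of all genes were, and Sparc and Postn overlapped.

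Of the crosslinking enzymes, Lox rose. Lox (ENSMUSG00000024529, chromosome 18, 52516067 to 52529867, minus strand), lysyl oxidase, had 4.45, 4.44 and 7.97 FPKM in db/m-GABP-OE, against 1.24, 2.67 and 0.874 FPKM in db/m-veh. The log2 fold change was 1.59 (SE 0.39, limma adjusted p = 0.0463), and 1.19 when scaled by median of ratios (limma adjusted p = 0.435). Over 26 alternatives the limma adjusted p ran from 0.00029 to 0.826, and 9 of them called it. Loxl1, which acts on elastin and has the highest mean of the 3 over all 12 libraries, had 17.7, 20.5 and 17.8 FPKM in db/m-GABP-OE, against 11.0, 16.4 and 8.15 FPKM in db/m-veh (log2 fold change 0.69 with an SE of 0.36, limma adjusted p = 0.393). Loxl2, which acts on type IV collagen, averaged 3.83 ± 0.927 FPKM (SD, n = 3) in db/m-GABP-OE and 1.96 ± 0.261 FPKM in db/m-veh (log2 fold change 0.80, limma adjusted p = 0.276).

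Fibrillar collagens give the interstitial matrix its tensile strength. Their 5 members together were at 100.5, 112.5 and 99.9 FPKM in db/m-GABP-OE, against 24.9, 52.1 and 16.8 FPKM in db/m-veh, and at 79.6, 86.2 and 75.1 against 25.4, 63.1 and 15.5 after median of ratios. Col3a1 (ENSMUSG00000026043, chromosome 1, 45311538 to 45349706, plus strand), the type III collagen chain of reticular fibres, had 29.0, 31.0 and 33.4 FPKM in db/m-GABP-OE, against 5.26, 12.9 and 3.02 FPKM in db/m-veh. It passed the test narrowly, with a log2 fold change of 2.28 (SE 0.57, limma adjusted p = 0.0497), and 1.85 when scaled by median of ratios (limma adjusted p = 0.488). Over 26 alternatives the limma adjusted p ran from 3.65e-05 to 0.826, and 9 of them called it.

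Both chains of type I collagen, the main fibrillar collagen, were also separate as deposited, as were 30.4% of all genes upwards, without passing the test. After median of ratios Col1a1 stayed separate and Col1a2 overlapped. Col1a1 had 29.9, 38.4 and 35.8 FPKM in db/m-GABP-OE, against 8.06, 16.4 and 5.35 FPKM in db/m-veh (log2 fold change 1.89 with an SE of 0.52, limma adjusted p = 0.0726). Col1a2 had 30.5, 31.2 and 24.7 FPKM in db/m-GABP-OE, against 6.84, 16.0 and 5.17 FPKM in db/m-veh (log2 fold change 1.72 with an SE of 0.55, limma adjusted p = 0.128). Type V collagen regulates the diameter of such fibrils. Its chains Col5a1 and Col5a2 had log2 fold changes of 0.78 and 0.92, with overlapping libraries.

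Small leucine-rich proteoglycans bind collagen fibrils and set their spacing, and 0 of the 3 members passed the test. All 3 were separate upwards on both scales, as were 30.4% of all genes as deposited and 9.72% after median of ratios. Dcn, decorin, had 29.8, 37.1 and 60.5 FPKM in db/m-GABP-OE, against 10.1, 16.3 and 4.64 FPKM in db/m-veh (log2 fold change 2.08 with an SE of 0.59, limma adjusted p = 0.0815). Lum, lumican, had 3.85, 2.82 and 4.99 FPKM in db/m-GABP-OE, against 0.491, 1.50 and 0.219 FPKM in db/m-veh (log2 fold change 1.93 with an SE of 0.57, limma adjusted p = 0.0975). Bgn, biglycan, with the second highest mean of all members over the 12 libraries, had 91.6, 100 and 139 FPKM in db/m-GABP-OE, against 48.4, 52.5 and 21.9 FPKM in db/m-veh (log2 fold change 1.49 with an SE of 0.52, limma adjusted p = 0.169).

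Of the 6 beaded filament, network and fibril-associated collagens, 0 passed the test in this comparison, with a median log2 fold change of 0.89. Col6a1, a chain of the beaded filaments of type VI collagen, had 27.8, 27.5 and 27.9 FPKM in db/m-GABP-OE, against 16.6, 21.7 and 6.26 FPKM in db/m-veh (log2 fold change 1.04 with an SE of 0.54, limma adjusted p = 0.381). Its partners Col6a2 and Col6a3 had log2 fold changes of 0.84 and 0.94. Col14a1, which attaches to fibrils, averaged 29.8 ± 8.13 FPKM (SD, n = 3) in db/m-GABP-OE and 12.8 ± 6.22 FPKM in db/m-veh.

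Basement membrane members stood lowest in this comparison. Of the 11, 0 passed the test, the median log2 fold change was 0.70, and it was 0.30 after median of ratios. Col4a1, the member with the highest mean over the 12 libraries, had 98.9, 72.8 and 64.0 FPKM in db/m-GABP-OE, against 36.7, 126 and 65.3 FPKM in db/m-veh (log2 fold change 0.20 with an SE of 0.46, limma adjusted p = 0.818). Col4a2, its partner chain in the collagen network of most basement membranes, had 65.0, 58.1 and 44.1 FPKM in db/m-GABP-OE, against 33.5, 79.2 and 46.4 FPKM in db/m-veh (log2 fold change 0.14 with an SE of 0.41, limma adjusted p = 0.854). In both genes the db/m-veh libraries enclosed the db/m-GABP-OE libraries, and after median of ratios the signs turned, to -0.24 and -0.29. The start sites of the pair lie 21 bases apart on opposite strands of chromosome 8.

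Col18a1, the source of the endostatin fragment, had 44.7, 44.4 and 39.8 FPKM in db/m-GABP-OE, against 23.9, 58.2 and 27.8 FPKM in db/m-veh (log2 fold change 0.34 with an SE of 0.39, limma adjusted p = 0.661), and its sign turned to -0.10 after median of ratios. Col15a1, the related collagen, was at the upper end with 18.9, 16.3 and 18.9 FPKM in db/m-GABP-OE, against 8.47, 9.29 and 4.37 FPKM in db/m-veh (log2 fold change 1.30, limma adjusted p = 0.201). The chains of the mature glomerular basement membrane, Col4a3, Col4a4 and Col4a5, had log2 fold changes of 0.57, 0.70 and 0.77. Lamb1 and Lamc1, laminin chains, Nid1, nidogen, and Hspg2, perlecan, had 0.65, 0.84, 1.06 and 0.85.

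Over the whole list, all 43 log2 fold changes of db/m-GABP-OE over db/m-veh were above 0 as deposited, as were 88.5% of all genes tested. Of the 43, 39 were above the all-gene median of 0.38, with a member median of 1.06. With median of ratios 38 were above 0, as were 55.9% of all genes, and 37 above the all-gene median of 0.04, with a member median of 0.63. All 3 db/m-GABP-OE libraries lay above all 3 db/m-veh libraries for 34 members as deposited, where 30.4% of all genes did, and for 15 members after median of ratios, where 9.72% did. The 7 calls depended on single libraries, for they fell to 0 without db/m-GABP-OE 2, without db/m-GABP-OE 3 or without db/m-veh 3. Calls over all genes fell in these settings too, from 238 called higher to 28, 40 and 36. Members called were 3 without db/m-GABP-OE 1 or without db/m-veh 1, where 154 and 260 genes were called higher. They were 4 without db/db-veh 1, where 194 genes were called higher. Library db/db-GABP-KD 1 enters this comparison through the shared estimate of spread, and through the filter and hence the adjustment. Without it 15 members were called, all higher, where 4.37% of the 12788 genes then tested were called, 541 of them higher.

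**Figure D2:**
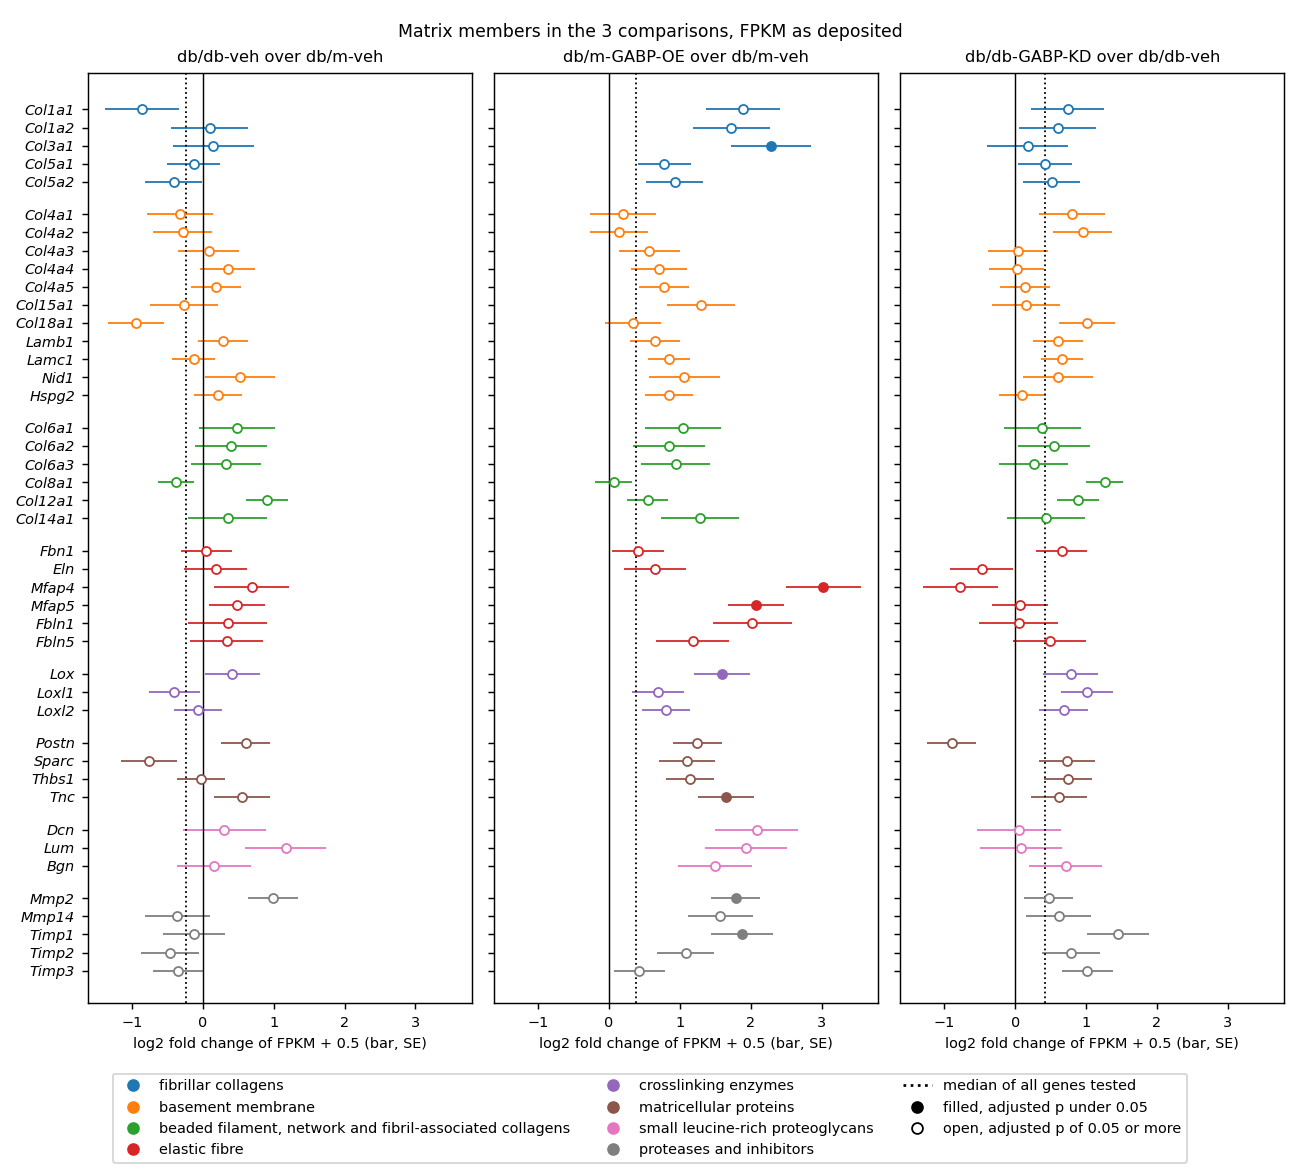
Log2 fold change of each of the 43 members in the 3 comparisons, on the log2(FPKM + 0.5) scale as deposited, coloured by role. Bars are the SE, filled points passed the test and dotted lines are the all-gene medians. In db/m-GABP-OE over db/m-veh all 43 values as deposited lie above 0, as do 88.5% of all genes tested. In the other 2 comparisons 0 members were called.

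Markers of other cells moved in the same libraries. The 9 macrophage markers summed to 134, 194 and 243 FPKM in db/m-GABP-OE, against 31.0, 35.9 and 31.5 FPKM in db/m-veh, and to 106, 149 and 183 against 31.7, 43.5 and 29.1 after median of ratios. Of the 9, 3 rose, where 1.85% of all genes were called higher as deposited: Mrc1 (log2 fold change 1.53), C1qa (2.80) and C1qc (2.20). The fibroblast and myofibroblast markers, 11 in the table and 9 past the filter, summed to 212, 207 and 289 FPKM in db/m-GABP-OE, against 111, 142 and 111 FPKM in db/m-veh. Of these 9, 0 passed the test. As deposited 7 were separate upwards, where 30.4% of all genes were. A further 1 was separate downwards, and the share of all genes in that direction is not given here. S100a4 was listed at 0 in every library. After median of ratios the fibroblast and myofibroblast sums overlapped, at 167.4, 158.9 and 217.5 in db/m-GABP-OE, against 113.5, 171.5 and 102.0 in db/m-veh. Endothelial markers summed to 236, 225 and 298 FPKM in db/m-GABP-OE, against 156, 122 and 150 FPKM in db/m-veh, with 0 of 11 called. Of 5 adipocyte markers tested, Cfd rose (log2 fold change 3.42), where 1.85% of all genes were called higher. The 7 listed summed to 23.1, 30.7 and 18.7 FPKM in db/m-GABP-OE, against 4.45, 12.4 and 7.48 FPKM in db/m-veh. After median of ratios these sums overlapped, at 18.27, 23.54 and 14.03 in db/m-GABP-OE, against 4.545, 15.03 and 6.901 in db/m-veh. Of 10 podocyte markers, 10 pericyte, smooth muscle and mesangial markers, 5 urothelial and mesothelial markers and 9 proximal tubule markers, 0 were called. Kap, at 14740, 30360 and 22350 FPKM in db/m-GABP-OE, against 14990, 2774 and 6747 FPKM in db/m-veh, overlapped (log2 fold change 1.72 with an SE of 0.57, limma adjusted p = 0.147). The part of these cell markers in the matrix values was not tested.

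**Figure D3:**
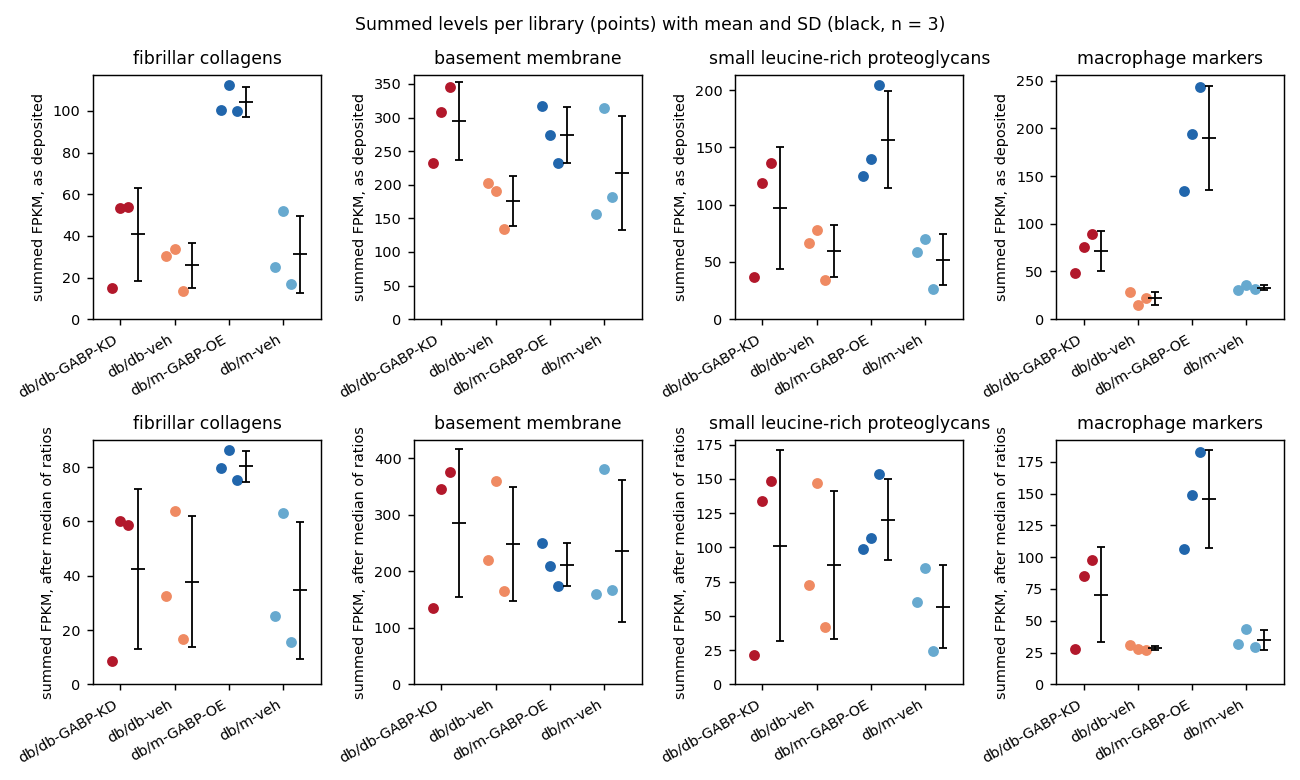
Summed FPKM per library of 3 roles of matrix genes and of the 9 macrophage markers, as deposited (upper row) and after median of ratios (lower row). Points are libraries and black marks the mean and SD (n = 3). Fibrillar collagens and macrophage markers are higher in all 3 db/m-GABP-OE libraries than in all 3 db/m-veh libraries on both scales, while basement membrane sums overlap.

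An F test for any difference among the 4 groups called 12 members, where 7.42% of all genes were called. They were Mfap4, Mfap5, Mmp2, Timp1, Lox and Col3a1 of the members above, and Col1a1, Col8a1, Col12a1, Postn, Sparc and Mmp14. On the median of ratios scale 2 were called, where 2.09% of all genes were: Mfap4 (limma adjusted p = 0.0351) and Col12a1 (limma adjusted p = 0.0456). Each of these 2 was called in 23 of 25 alternatives, with adjusted p from 7.67e-06 to 0.0618 for Mfap4 and from 0.000207 to 0.0591 for Col12a1. Without db/db-GABP-KD 1 the test called 23 members, where 17.8% of all genes were called.

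Col12a1 (ENSMUSG00000032332, chromosome 9, 79598991 to 79718831, minus strand), a collagen that decorates the surface of fibrils, was ordered otherwise than Mfap4, being highest, as deposited, in the libraries labelled db/db-GABP-KD. It had 2.99, 3.52 and 4.07 FPKM in db/db-GABP-KD, 2.14, 1.99 and 1.05 in db/db-veh, 1.41, 1.11 and 1.05 in db/m-GABP-OE, and 0.517, 0.848 and 0.626 in db/m-veh, from 1281, 577, 496 and 249 fragments. As deposited, libraries of db/db-GABP-KD lay above all the others and those of db/m-veh below all the others, while db/db-veh and db/m-GABP-OE overlapped. After median of ratios Col12a1 was at 1.75, 3.96 and 4.44 in db/db-GABP-KD, 2.32, 3.75 and 1.31 in db/db-veh, 1.12, 0.850 and 0.793 in db/m-GABP-OE, and 0.528, 1.03 and 0.577 in db/m-veh. On that scale db/db-GABP-KD overlapped db/db-veh, db/m-GABP-OE overlapped db/m-veh, and all 6 db/db libraries lay above all 6 db/m libraries. Its log2 fold change did not pass the test in any single comparison, at 0.89 for db/db-GABP-KD over db/db-veh (SE 0.29, limma adjusted p = 0.345; 0.40 after median of ratios), 0.54 for db/m-GABP-OE over db/m-veh (limma adjusted p = 0.397) and 0.91 for db/db-veh over db/m-veh (limma adjusted p = 0.257).

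Col8a1, a network-forming collagen of vessel walls, was at 1.92, 2.31 and 1.58 FPKM in db/db-GABP-KD, against 0.546, 0.679 and 0.332 FPKM in db/db-veh. It was at 1.05, 0.737 and 0.847 FPKM in db/m-GABP-OE, against 0.670, 0.862 and 0.916 FPKM in db/m-veh. The F test called it (limma adjusted p = 0.0273), and its libraries labelled db/db-GABP-KD lay above the other 9. The log2 fold change of db/db-GABP-KD over db/db-veh was 1.26 (SE 0.26, limma adjusted p = 0.194), and 0.88 after median of ratios, where the groups overlapped.

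Between the vehicle groups, db/db-veh over db/m-veh, the question was which matrix genes differed in the diabetic kidney. limma called 0 of the 43 members, where 0.0930% of all genes were called. At an unadjusted p under 0.05 there were 3 members, and 1489 of all 12897 genes, and voom called 0 members. The median log2 fold change of the members was 0.16 beside an all-gene median of -0.24, and 0.51 beside 0.01 after median of ratios. On that scale 35 members were above 0, where 51.2% of all genes were. All 3 db/db-veh libraries lay above all 3 db/m-veh libraries for 3 members (1.46% of all genes did) and below them for 2 (14.4% did). Scaled by median of ratios, they lay above for 6 members (8.30% of all genes) and below for 0 (9.03% of all genes).

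Mmp2 and Col12a1 were above in every library on both scales. Mmp2 was at 3.89, 4.70 and 2.90 FPKM in db/db-veh, against 1.43, 2.00 and 1.56 FPKM in db/m-veh (log2 fold change 0.99 with an SE of 0.35, limma adjusted p = 0.279). Tnc was the third such member, at 1.95, 1.17 and 1.16 FPKM in db/db-veh, against 0.521, 1.09 and 0.827 FPKM in db/m-veh (log2 fold change 0.55 with an SE of 0.40, limma adjusted p = 0.634). Lum had the highest log2 fold change, 1.17 (SE 0.57, limma adjusted p = 0.449), with 2.41, 3.60 and 0.851 FPKM in db/db-veh, against 0.491, 1.50 and 0.219 FPKM in db/m-veh. These libraries overlapped.

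At the low end stood Col18a1 and Sparc, both below in every library as deposited and overlapping after median of ratios. Col18a1 was at 20.4, 15.5 and 16.6 FPKM in db/db-veh, against 23.9, 58.2 and 27.8 FPKM in db/m-veh (log2 fold change -0.94 with an SE of 0.39, limma adjusted p = 0.363). Sparc was at 28.1, 27.5 and 17.8 FPKM in db/db-veh, against 40.5, 49.7 and 34.1 FPKM in db/m-veh (log2 fold change -0.76 with an SE of 0.39, limma adjusted p = 0.477). Col1a1 had 5.17, 6.62 and 3.00 FPKM in db/db-veh, against 8.06, 16.4 and 5.35 FPKM in db/m-veh (log2 fold change -0.86 with an SE of 0.52, limma adjusted p = 0.551). The type IV collagen members overlapped as deposited, Col4a1 being at 62.5, 62.7 and 39.0 FPKM in db/db-veh, against 36.7, 126 and 65.3 FPKM in db/m-veh. After median of ratios Col4a4 was separate upwards, as were 8.30% of all genes, while the other type IV members overlapped. Col4a4 was then at 9.48, 8.53 and 9.29 in db/db-veh, against 8.26, 3.64 and 5.04 in db/m-veh (log2 fold change 0.71, limma adjusted p = 0.333).

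Cell markers differed between the vehicle groups too. Kap fell to 850.5, 348.2 and 836.4 FPKM in db/db-veh, against 14990, 2774 and 6747 FPKM in db/m-veh (log2 fold change -3.38 with an SE of 0.57, limma adjusted p = 0.0237, and 0.0358 after median of ratios). Macrophage markers summed to 28.4, 14.8 and 22.0 FPKM in db/db-veh, against 31.0, 35.9 and 31.5 FPKM in db/m-veh. These did not overlap as deposited, and overlapped after median of ratios. Endothelial markers were lower in all 3 db/db-veh libraries on both scales, at 115, 68.8 and 108 FPKM in db/db-veh, against 156, 122 and 150 FPKM in db/m-veh. Fibroblast and myofibroblast markers overlapped. The part of these cell markers in the matrix values of the vehicle groups was not tested.

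The comparison of db/db-GABP-KD with db/db-veh asked what differed when GABP was labelled as lowered in diabetic mice. limma called 0 of the 43 members and 0 of all genes tested (0%), with 10 members and 1839 genes at an unadjusted p under 0.05, and voom called 0 members. After median of ratios 0 members were called, and 0.0388% of all genes were. On that scale 3 members and 836 genes were at an unadjusted p under 0.05. The median log2 fold change of the members was 0.60 beside an all-gene median of 0.42, and 0.01 beside 0.00 after median of ratios. Libraries labelled db/db-GABP-KD all lay above those of db/db-veh for 11 members (17.3% of all genes) and below for 1 (0.822% of all genes). Scaled by median of ratios, they lay above for 0 members (4.63% of all genes) and below for 3 (5.67% of all genes).

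Library db/db-GABP-KD 1 was the lowest of its group for 33 of the 43 members, among them all 5 fibrillar collagens and all 3 small proteoglycans, and the highest for 5, among them Eln and Lox. The fibrillar collagens summed to 14.9, 53.4 and 53.9 FPKM in db/db-GABP-KD, against 30.2, 33.9 and 13.5 FPKM in db/db-veh. The small proteoglycans summed to 36.7, 119 and 136 FPKM in db/db-GABP-KD, against 66.9, 77.9 and 34.0 FPKM in db/db-veh. Basement membrane members were closer together as deposited, at 232, 308 and 346 FPKM in db/db-GABP-KD, against 203, 191 and 134 FPKM in db/db-veh. After median of ratios these groups overlapped, at 135.4, 346.2 and 376.8 in db/db-GABP-KD, against 219.6, 360.9 and 165.9 in db/db-veh. The same library had the highest sum of pericyte, smooth muscle and mesangial markers, 321 FPKM beside 50.4 and 60.2 FPKM in the other 2, and what this has to do with its matrix values was not tested. Macrophage markers summed to 48.2, 75.9 and 89.8 FPKM in db/db-GABP-KD, against 28.4, 14.8 and 22.0 FPKM in db/db-veh. After median of ratios their sums overlapped, at 28.13, 85.35 and 97.89 in db/db-GABP-KD, against 30.66, 27.91 and 27.25 in db/db-veh. Their part was not tested either. Without db/db-GABP-KD 1 there were 0 members called, where 0.0313% of all genes were. At an unadjusted p under 0.05 in limma there were then 23 members, and 1239 of all 12788 genes tested. The median log2 fold change of the members was 0.90 in that setting, beside an all-gene median of 0.22.

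Highest among the members in this comparison were Timp1, Col8a1 and Timp3. Timp1 was at 2.40, 5.51 and 0.961 FPKM in db/db-GABP-KD, against 0.166, 0.731 and 1.03 FPKM in db/db-veh (log2 fold change 1.45 with an SE of 0.44, limma adjusted p = 0.337), from 66 and 13 fragments, and its libraries overlapped. Timp3 was at 24.4, 26.4 and 30.3 FPKM in db/db-GABP-KD, against 16.2, 14.2 and 9.64 FPKM in db/db-veh (log2 fold change 1.02 with an SE of 0.36, limma adjusted p = 0.345). Timp3 libraries were separate as deposited and overlapped after median of ratios. Loxl1 and Col18a1 followed the same pattern, with log2 fold changes of 1.02 and 1.01. Col4a2 was at 65.3, 84.3 and 89.9 FPKM in db/db-GABP-KD, against 46.9, 46.3 and 31.2 FPKM in db/db-veh (log2 fold change 0.95 with an SE of 0.41, limma adjusted p = 0.345), and 0.35 after median of ratios.

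Postn was the member whose libraries lay below on both scales, at 0, 0.147 and 0.392 FPKM in db/db-GABP-KD, against 1.25, 0.656 and 0.419 FPKM in db/db-veh, or 35 and 146 fragments. Its log2 fold change was -0.90 (SE 0.35, limma adjusted p = 0.345), and -1.14 after median of ratios. Eln was at 3.82, 0.835 and 1.23 FPKM in db/db-GABP-KD, against 4.62, 1.19 and 2.60 FPKM in db/db-veh (log2 fold change -0.48 with an SE of 0.44, limma adjusted p = 0.528). Its libraries overlapped as deposited and lay below on the other scale, where the log2 fold change was -0.99. Mfap4 had a log2 fold change of -0.78 (SE 0.53, limma adjusted p = 0.42) with overlapping libraries. Col4a4 was at 8.39, 5.48 and 6.81 FPKM in db/db-GABP-KD, against 8.77, 4.51 and 7.48 FPKM in db/db-veh, with a log2 fold change of 0.02 that turned to -0.54 after median of ratios.

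The effects of GABP-OE in db/m and of GABP-KD in db/db were compared directly by the difference of the log2 fold changes, GABP-OE minus GABP-KD. limma called 0 of the 43 members, where 0.132% of all genes were called, and voom called 0 members. At an unadjusted p under 0.05 there were 9 members, and 702 of all 12897 genes. Mfap4 had the largest difference, 3.80 (SE 0.74, limma adjusted p = 0.0657), and 5 of 25 alternatives called it, their adjusted p lying between 0.00134 and 0.33. Postn had 2.14 (SE 0.49, limma adjusted p = 0.15), being 0.90 lower on the log2 scale in the libraries labelled GABP-KD and 1.25 higher in those labelled GABP-OE than in their vehicle groups. Col8a1 had the most negative difference, -1.20 (SE 0.365, limma adjusted p = 0.424).

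Ratios of 2 matrix genes within a library do not depend on how libraries are scaled. They were chosen after the values had been seen and are given as a description, without a test. Col1a1 over Col4a1, a type I over a type IV collagen chain in FPKM, was 0.0449, 0.133 and 0.107 in db/db-GABP-KD and 0.0827, 0.106 and 0.0767 in db/db-veh. The ratio was 0.302, 0.528 and 0.560 in db/m-GABP-OE, against 0.220, 0.130 and 0.0820 in db/m-veh. All 3 db/m-GABP-OE ratios lay above the other 9, and the groups db/db-GABP-KD and db/db-veh overlapped. Fibrillar collagens over basement membrane members, summed, were likewise higher in all 3 db/m-GABP-OE libraries, with 0.317, 0.411 and 0.431 in db/m-GABP-OE, against 0.159, 0.166 and 0.0926 in db/m-veh.

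Chains of one collagen did not keep a fixed ratio across the genotypes. Col1a1 and Col1a2 together form the type I collagen molecule. Their FPKM ratio, Col1a1 over Col1a2, was 0.548, 0.672 and 0.558 in db/db-GABP-KD and 0.435, 0.503 and 0.676 in db/db-veh, against 0.980, 1.23 and 1.45 in db/m-GABP-OE and 1.18, 1.02 and 1.04 in db/m-veh. All 6 db/db ratios lay below all 6 db/m ratios, and within each genotype the GABP and vehicle libraries overlapped. Col3a1 over Col1a1 separated in another way. It was 0.846, 0.962 and 0.979 in db/db-GABP-KD, against 1.55, 1.46 and 1.27 in db/db-veh, and 0.971, 0.806 and 0.932 in db/m-GABP-OE, against 0.652, 0.790 and 0.565 in db/m-veh. The db/db-veh ratios were the 3 highest of the 12. Genotype, and anything else that differed between the db/db and db/m mice, cannot be told apart here. The glomerular chains Col4a3, Col4a4 and Col4a5 over Col4a1 and Col4a2 were 0.127, 0.0769 and 0.0834 in db/db-GABP-KD, 0.193, 0.0980 and 0.238 in db/db-veh, 0.155, 0.159 and 0.182 in db/m-GABP-OE, and 0.283, 0.0387 and 0.126 in db/m-veh. In that ratio the vehicle libraries spread more widely than those of the groups labelled with GABP-KD or GABP-OE, and all groups of the same genotype overlapped.

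**Figure D4:**
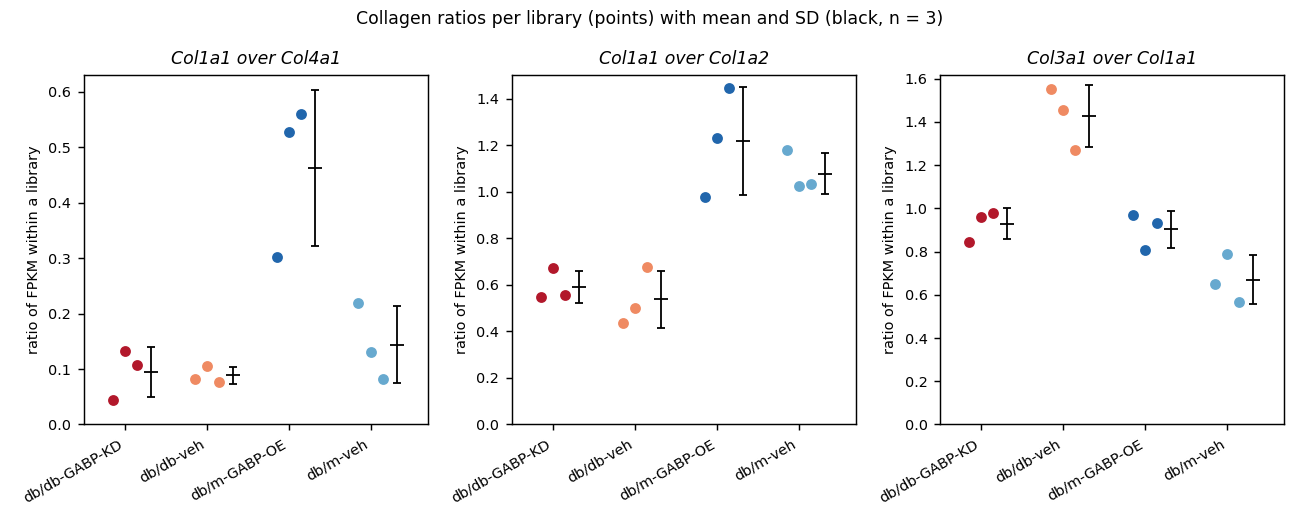
Ratio of FPKM within each library for Col1a1 over Col4a1, Col1a1 over Col1a2 and Col3a1 over Col1a1. Points are libraries and black marks the mean and SD (n = 3). Col1a1 over Col4a1 is highest in the 3 db/m-GABP-OE libraries, at 0.302 to 0.560, and Col1a1 over Col1a2 is lower in all 6 db/db libraries than in all 6 db/m libraries.

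Other genes of the matrix were read from lists that hold none of the 43 members. Of 51 other glycoproteins and proteoglycans tested, 3 rose in db/m-GABP-OE over db/m-veh, where 1.85% of all genes were called higher. The 3 were Tnxb, tenascin X (log2 fold change 1.33), Fmod, fibromodulin (2.05), and Mfap2, a further microfibril protein (1.86). Their limma adjusted p-values were 0.0355, 0.0175 and 0.0173. Mfap2 was at 6.40, 7.83 and 7.88 FPKM in db/m-GABP-OE, against 1.99, 1.70 and 1.33 FPKM in db/m-veh. Tnxb was also called by the F test on both scales (limma adjusted p = 0.00115, and 0.00842 after median of ratios). That test called 7.42% of all genes as deposited and 2.09% after median of ratios. Tnxb was low in both db/db groups. It had 0.562, 0.605 and 0.390 FPKM in db/db-GABP-KD, 0.798, 0.231 and 0.425 in db/db-veh, 3.29, 3.82 and 4.51 in db/m-GABP-OE, and 1.79, 1.35 and 0.715 in db/m-veh.

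Of 21 genes for collagen folding, processing and crosslinking tested, Adamts2 rose in db/m-GABP-OE, where 1.85% of all genes were called higher. Adamts2, which cuts the N-propeptide from fibrillar procollagens, had a log2 fold change of 1.37 (limma adjusted p = 0.0421). It was at 2.63, 3.01 and 3.08 FPKM in db/m-GABP-OE, against 0.890, 1.02 and 0.585 FPKM in db/m-veh. The collagen chaperone gene Serpinh1 had 104, 62.6 and 95.8 FPKM in db/m-GABP-OE, against 45.9, 41.4 and 38.6 FPKM in db/m-veh, and did not pass (log2 fold change 1.02, limma adjusted p = 0.279). Of 30 other proteases and inhibitors tested, Reck, a membrane-anchored inhibitor, Mmp3, stromelysin, and Mmp12, a metalloproteinase of macrophages, rose, with log2 fold changes of 1.26, 1.42 and 0.95. Beside these calls too, 1.85% of all genes were called higher. Mmp12 was low throughout, at 0.536, 0.584 and 0.837 FPKM in db/m-GABP-OE, against 0.0756, 0.0608 and 0.148 FPKM in db/m-veh. Of 11 other collagens tested, 0 passed, with a median log2 fold change of 0.32. After median of ratios 0 genes of these 4 lists were called in db/m-GABP-OE over db/m-veh, where 0.163% of all genes were called higher. In the other 2 comparisons 0 were called on either scale.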

How the data were processed

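Kidney poly(A) RNA was fragmented, copied with random primers and sequenced in pairs on an Illumina instrument, per the labels' protocols. The authors deposited 1 table of FPKM values for 21899 genes in 12 libraries, 3 in each of 4 groups. HTSeq and GRCm39 are named, without a version of HTSeq, per the submitters' processing notes. The sources used here give neither aligner nor strand setting. Exon lengths and gene coordinates came from GENCODE on GRCm38.

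FPKM values were tested as log2(FPKM + 0.5) with limma 3.58.1 in R 4.3.3, in 1 fit of all 12 libraries with a trend in the variance. Genes needed an FPKM of 0.3 in 3 libraries, and two-sided p-values were adjusted over all 12897 genes by Benjamini-Hochberg at 0.05. Summaries used Python 3.11.15, pandas 2.3.3 and numpy 2.4.6. Median of ratios used the 5884 genes above an FPKM of 1 in every library. Fragments were recovered from the deposited FPKM with exon lengths and came out whole, within 0.05 of a fragment, for 21474 of 21846 genes with a length. They served voom and the fragment numbers, whose precision covers counting error only. The fit was tested on simulated data whose libraries shared the same mean proportions, apart from genes changed on purpose. That simulation held no shift between libraries like those seen here, so it cannot show how the fit deals with them.

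The members, gene lists and tests were chosen with earlier results of these data known. Genes named with every library were members called by any test, the member of each role with the highest mean over all libraries, and the 3 highest and 3 lowest members of each comparison once members whose higher group averaged below 1 FPKM were set aside. Genes of the further lists were named where called. Serpinh1, and other members given by means, were added for their role. Alternatives were other pseudocounts, filters, scalings, weights, a replicate block, voom, 2 groups alone and leaving out each library.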

Additional observations from a re-analysis of the deposited data

How the results depend on the processing

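The count of members called higher in db/m-GABP-OE over db/m-veh, 7 as reported, was 0 after median of ratios, 0 with the nuclear FPKM sum made equal, 0 with quantile normalization, 2 with a pseudocount of 0.1, 3 with no filter, 3 with no trend in the variance, 2 with voom, 15 with the 2 groups fitted alone and 35 with library weights, where 20.1% of all genes were called higher. It was 2 after median of ratios without db/db-GABP-KD 1, where 67 genes were called higher, and leaving out each library gave 0 to 15. Over all genes, those called higher were 238 as reported, 21 after median of ratios, 12 with the nuclear sum made equal and 25 with quantile normalization. They were 57 with a pseudocount of 0.1, 249 with no filter and 117 with no trend. With voom they were 58, and with the 2 groups alone 566. The 12 members called by the F test became 2 after median of ratios, 0 with the nuclear sum made equal, 2 with quantile normalization, 6 with no filter, 39 with library weights (39.6% of all genes) and 5 after median of ratios without db/db-GABP-KD 1, and 2 to 23 with a library left out. Genes called by the F test were 957 as reported, 269 after median of ratios, 203 with the nuclear sum made equal and 264 with quantile normalization. They were 687 with no filter and 451 after median of ratios without db/db-GABP-KD 1. Library weights also called 4 members higher in db/db-GABP-KD over db/db-veh, where 134 genes were called higher. In GABP-OE minus GABP-KD they called 4 members higher and 1 lower, and 320 and 56 genes. There a pseudocount of 1 and a filter at FPKM 1 each called 1 member, and 17 and 16 genes. Leaving out a library called 0 to 1 members there, and 1 to 40 genes. The cause of these changes was not tested.

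Nothing in the labels says that replicate numbers pair the libraries. Correlations of same-numbered deviations from the group means ran from -0.45 to 0.24 for db/db-GABP-KD and db/db-veh. They ran from -0.06 to 0.07 for db/m-GABP-OE and db/m-veh, and from 0.08 to 0.35 for db/db-veh and db/m-veh. For unlike numbers the ranges were -0.36 to 0.51, -0.07 to 0.09 and -0.32 to 0.22, in the same order. Deviations of 3 libraries from their mean sum to 0, so these correlations cannot decide whether the numbers mark pairs. With the replicate block 8 members were called higher in db/m-GABP-OE, where 270 genes were. The F test with the block called 12 members and 1019 genes, and 0 members were called in the other comparisons. With the block and median of ratios together 0 were called in each.

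Between the values as deposited and median of ratios the sign turned for 9 of 43 members in db/db-veh over db/m-veh, 5 in db/m-GABP-OE over db/m-veh, 16 in db/db-GABP-KD over db/db-veh and 0 in GABP-OE minus GABP-KD. Under the other settings too, log2 fold changes were recomputed for the called members and for the highest and lowest of each comparison, and 4 of these turned. In db/m-GABP-OE over db/m-veh, Col4a1 was at -0.24 after median of ratios, with or without the block or db/db-GABP-KD 1, -0.37 with the nuclear sum made equal, -0.29 with quantile normalization and -0.23 without db/m-veh 1. Col4a2 was at -0.29 (-0.30 without db/db-GABP-KD 1), -0.43, -0.32 and -0.14 in the same settings. Col18a1 was at -0.10, -0.23 and -0.11 in the first 3. In db/db-GABP-KD over db/db-veh, Col4a4 was at -0.54 after median of ratios, -0.41 when db/db-GABP-KD 1 was also left out, -0.66 with the nuclear sum made equal, -0.59 with quantile normalization, -0.23 with library weights, -0.12 without db/db-GABP-KD 1 and -0.24 without db/db-veh 2. With each library left out, Col4a1 ran from -0.23 to 0.65, Col4a2 from -0.14 to 0.47 and Col4a4 from -0.24 to 0.21. Among the 7 called members depth in db/m-veh was lowest for Mfap5, Timp1 and Mfap4, with 12, 15 and 43 fragments.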

Other observations

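Receptors by which cells hold the matrix were mostly not called in db/m-GABP-OE over db/m-veh, where 1.85% of all genes were called higher. Of 22 tested, Cd44, the receptor for hyaluronan, rose in db/m-GABP-OE relative to db/m-veh, by a log2 fold change of 1.48 (SE 0.29, limma adjusted p = 0.0131; 1.18 after median of ratios, limma adjusted p = 0.189). It was at 1.05, 1.80 and 2.10 FPKM in db/m-GABP-OE, against 0.403, 0.195 and 0.174 FPKM in db/m-veh. Cd44 is also expressed by leukocytes, and the macrophage markers of these libraries were higher in the same group, whose part in this value was not tested. Of 12 TGF-beta ligands and early targets, which regulate matrix genes in fibrosis, 0 passed that test, with a median log2 fold change of 0.58, and 0.24 after median of ratios. Tgfb1 was called by the F test (limma adjusted p = 0.0338), as were 7.42% of all genes tested. It had 3.19, 2.47 and 2.99 FPKM in db/db-GABP-KD, 1.90, 1.18 and 1.52 in db/db-veh, 3.80, 5.31 and 6.88 in db/m-GABP-OE, and 3.10, 2.45 and 2.38 in db/m-veh. After median of ratios it was not called (limma adjusted p = 0.299).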
